A study of Saccharomyces cerevisiae with 12 samples.

Results

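The yeast genes of acetate formation (ALD2, ALD3, ALD4, ALD5 and ALD6), acetate activation (ACS1 and ACS2) and the carnitine shuttle of acetyl units (CAT2, YAT1 and YAT2) were followed across 12 expression arrays. They were chosen by name, with earlier results of these data known. They are 10 of the 5656 genes that the array annotation names, and are each represented by a probe set annotated to the gene. The groups were ρ0 cells, which lack mitochondrial DNA, after 4 h without glucose; ρ0 cells in 2% glucose; ρ+ cells, which carry mitochondrial DNA, after 4 h without glucose; and ρ+ cells in 2% glucose. Each of the 4 groups had 3 replicates, which the labels call biological. Cultures of Saccharomyces cerevisiae reached an OD600 of 1 at 22 °C in complete medium that held glucose, and some of each was harvested there. The remaining cells were spun down, washed and shaken in the medium without glucose, per the labels' protocols. No group was washed and then shaken with glucose, so that effects of washing and of added time cannot be told apart from those of glucose loss. Below, glucose withdrawal stands for these steps together. The sources used here do not give the strain background, how the ρ0 cells were obtained or whether they are 1 clone.

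In yeast, acetaldehyde from fermented sugar or from ethanol is oxidised to acetate by aldehyde dehydrogenases, with Ald6 in the cytosol and Ald4 and Ald5 in mitochondria. Acetyl-CoA synthetases, Acs1 and Acs2, then join acetate to coenzyme A. Acetyl groups do not cross the mitochondrial or peroxisomal membranes as acetyl-CoA, and 1 route around this is their transfer to carnitine by the carnitine acetyltransferases Cat2, Yat1 and Yat2. Yeast does not make carnitine and takes it up from the medium. Ald2 and Ald3 are cytosolic and are known for making beta-alanine, a precursor of coenzyme A.

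A signal below is the brightness of a probe set in arbitrary units, on a linear scale. A log2 change is a difference between group means of log2(signal + 1.498) and understates the change of dim genes. It is said to have passed where its adjusted p in the limma fit over all features was below 0.05. A change in the amount of all mRNA per cell cannot be seen, since each array was scaled to 1 trimmed mean. OLI1, a gene of mitochondrial DNA, served as the check of the strain labels, with signals of 0.320 ± 0.0797 in ρ0 cells without glucose, 0.285 ± 0.131 in ρ0 cells in glucose, 128 ± 15.2 in ρ+ cells without glucose and 128 ± 29.3 in ρ+ cells in glucose (SD, n = 3 each). The hybridisation control CreX was lowest on the array of ρ0 in glucose replicate 2 (285) and next lowest on that of ρ0 without glucose replicate 1 (487). That of ρ+ without glucose replicate 2 came close to these (525), and CreX reached 869 elsewhere. SPT15 signals at the 5′ end relative to the 3′ end, a measure of transcript completeness, had a ratio of 0.106 to 0.187 in ρ0 cells without glucose, 0.130 to 0.390 in ρ0 cells in glucose, 0.182 to 0.194 in ρ+ cells without glucose and 0.239 to 0.368 in ρ+ cells in glucose. The same ratio for ACT1 was 0.509 to 0.825 in ρ0 cells without glucose, 0.641 to 0.830 in ρ0 cells in glucose, 0.605 to 0.670 in ρ+ cells without glucose and 0.698 to 0.710 in ρ+ cells in glucose. It was highest on the arrays of ρ0 in glucose replicate 2 and ρ0 without glucose replicate 1, the arrays with the lowest CreX. The ribosomal RNA controls had a mean log2 signal of 7.82 to 8.86 in ρ0 cells without glucose, 7.14 to 7.91 in ρ0 cells in glucose, 8.50 to 8.71 in ρ+ cells without glucose and 7.08 to 7.60 in ρ+ cells in glucose. The part of these differences in the results below was not tested. Over all features tested, the median log2 change was −0.11 for withdrawal in ρ0, −0.19 for withdrawal in ρ+, 0.13 for ρ0 against ρ+ in glucose, 0.21 for ρ0 against ρ+ without glucose and 0.09 for the difference of the responses.

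All 10 genes passed the filter on dim signals, and each probe set used exceeded the detection level of 5.82 on all 12 arrays. ALD2 and ALD3, which lie next to each other with 0 genes between them in the RefSeq order of assembly R64, share 1 probe set that does not separate them. It was the brightest set for both genes. Here the single genes are given by their own sets, and the shared set is given beside them as ALD2/ALD3 and left out of the counts of genes. By the shared set, both genes would have passed for withdrawal in either strain and for ρ0 against ρ+ without glucose. ALD6 has 2 sets of its own, of which the unused one lay below the detection level on all 12 arrays.

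After glucose withdrawal in ρ+ cells, genes at each step of the path rose: ALD4, ALD6 and ALD3 for aldehyde dehydrogenases, ACS1 for an acetyl-CoA synthetase, and CAT2 and YAT2 for carnitine acetyltransferases. The rises of ALD3 and ACS1 passed in only 16 and 14 of 24 runs with other settings or with arrays left out. The largest change among the 10 was that of ALD4, at 5.74-fold, and the changes of the other 5 lay between 1.54-fold and 2.19-fold. These are 6 of 10 genes higher and 0 lower, with a median log2 change of 0.76 over the 10, where 10.5% of all features tested were higher and 22.2% lower. In ρ0 cells 2 of the 10 rose, ALD4 and ALD5, and 0 fell, with a median of 0.37, where 4.61% of all features were higher and 12.4% lower. Between the strains in glucose, 1 of the 10 genes, YAT2, was higher in ρ0 and 0 were lower (median −0.05), where 5.0% of all features were higher and 1.45% lower. Without glucose, ALD5 was higher in ρ0 than in ρ+, and ALD4, CAT2 and YAT2 were lower (median −0.45), where 20.6% of all features were higher and 9.42% lower. The response to withdrawal itself was lower in ρ0 than in ρ+ for 2 genes, ALD4 and YAT2, and higher for 0 (median −0.38), where 5.35% of all features had a lower and 1.57% a higher response in ρ0. Where the limma count was 0, the genes with an unadjusted p below 0.05 were 0 lower for withdrawal in ρ0 and in ρ+, 1 lower in ρ0 in glucose (ACS2) and 1 with a higher response in ρ0 (ALD5). The strain comparisons and the responses share arrays, so that they are not separate evidence for a gene. Since the 10 genes were chosen with earlier results known, the shares beside these counts are a description and not a test.

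**Figure D1:**
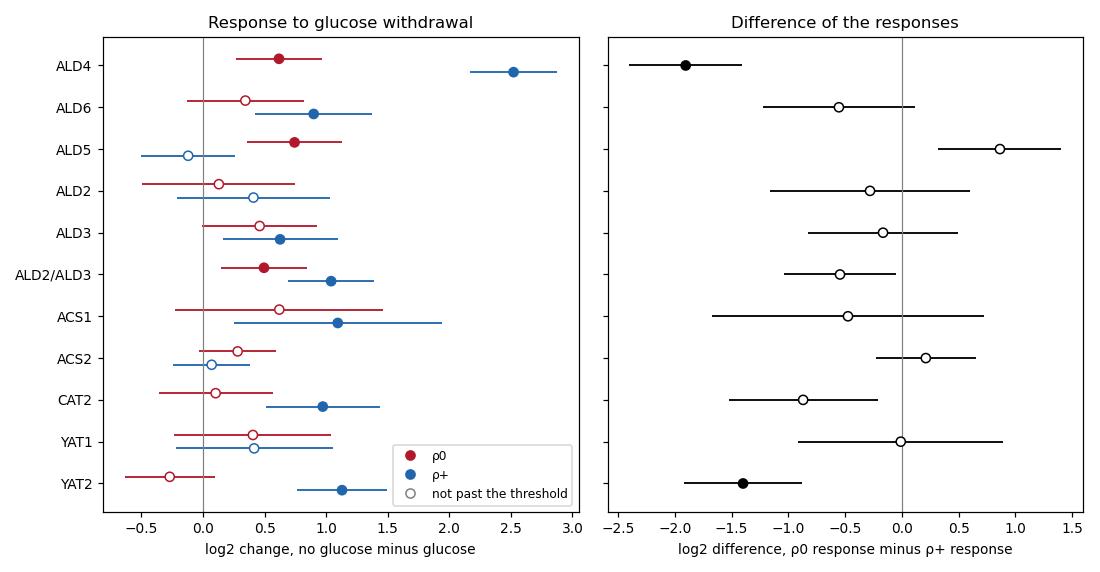
Log2 change after glucose withdrawal in each strain (left) and the difference of the responses, ρ0 minus ρ+ (right), for the 10 genes and the shared ALD2/ALD3 set, with 95% confidence intervals of the limma fit over 3 arrays a group. Filled points passed an adjusted p of 0.05. ALD4 in ρ+ lies far to the right at 2.52, and in the right panel only ALD4 (−1.90) and YAT2 (−1.40) are filled.

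ALD4, for the mitochondrial potassium-activated aldehyde dehydrogenase, had the largest response among these genes in ρ+ cells. Its signals in replicates 1, 2 and 3 were 191, 167 and 188 in ρ0 cells without glucose, 120.2, 128 and 107 in ρ0 cells in glucose, 456, 574 and 484 in ρ+ cells without glucose, and 102, 77.7 and 81.1 in ρ+ cells in glucose. No 2 groups overlapped, and the order from high to low was ρ+ without glucose, ρ0 without glucose, ρ0 in glucose, ρ+ in glucose. The gene rose 1.53-fold in ρ0 (log2 0.62 ± 0.17 SE, adjusted p = 0.0191) and 5.74-fold in ρ+ (log2 2.52 ± 0.17 SE, adjusted p = 2.9e-08). The difference of these responses was −1.90 ± 0.23 (SE; adjusted p = 0.000119). Without glucose its signal was 2.75-fold lower in ρ0 than in ρ+ (log2 −1.46 ± 0.17 SE, adjusted p = 1.7e-05). In glucose the log2 difference was 0.45 (adjusted p = 0.11). The rise in ρ0 no longer passed without the array of ρ0 no glucose replicate 1 (log2 0.58, adjusted p = 0.0661) or ρ0 glucose replicate 3 (log2 0.55, adjusted p = 0.0809), or with scaling to poly-A controls (log2 0.57, adjusted p = 0.1604).

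**Figure D2:**
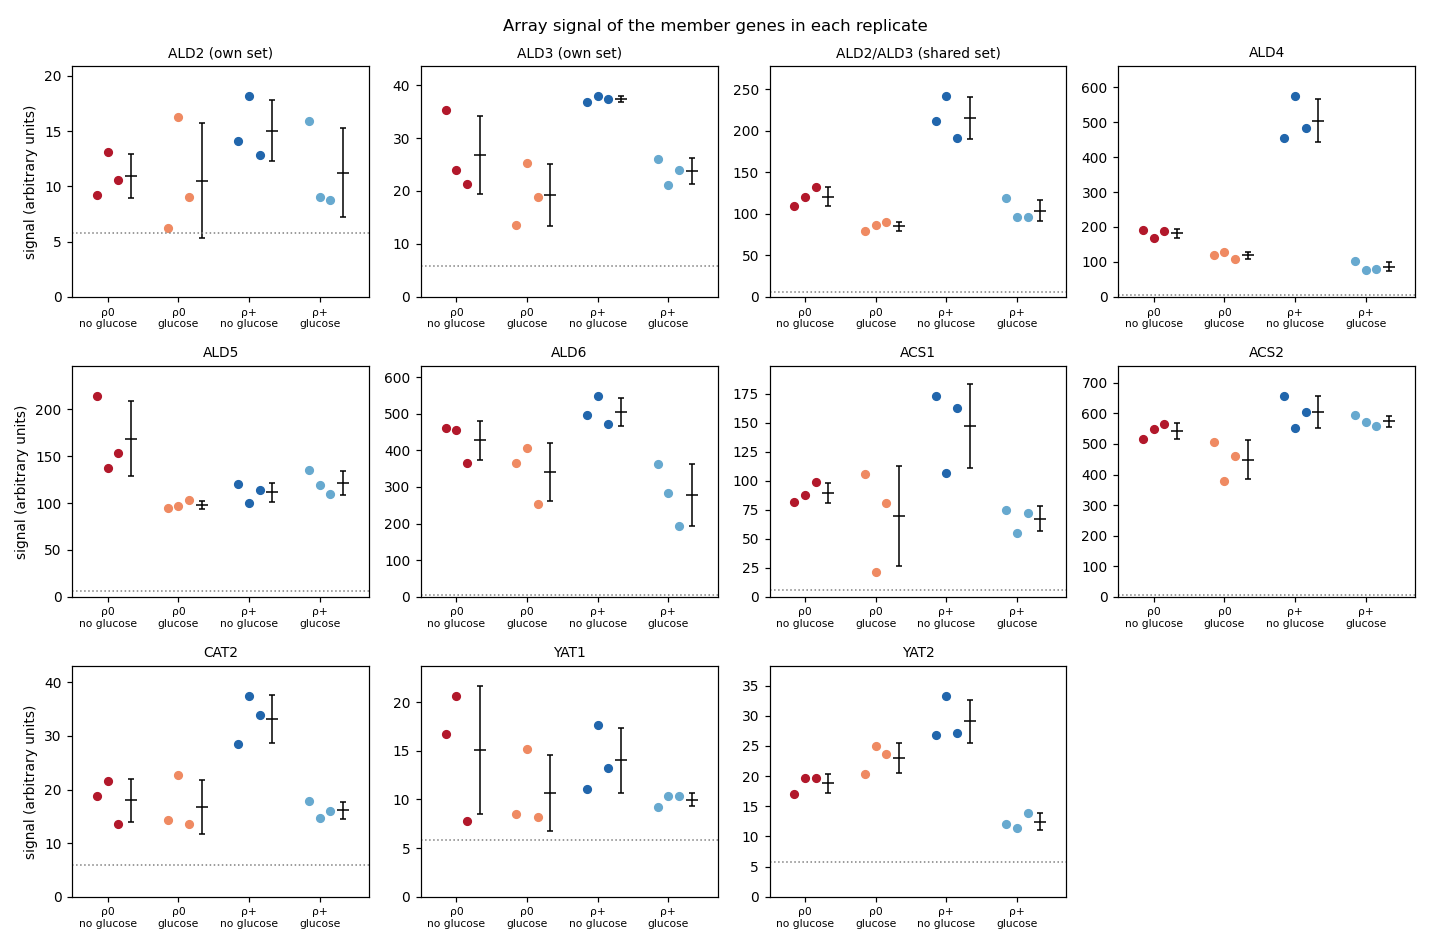
Signal (linear, arbitrary units, axes from 0) of each gene on each array, with groups along the horizontal axis, points for replicates 1 to 3 from left to right, and bars for the mean and SD of 3 arrays; the dotted line is the detection level of 5.82. The 3 points of ρ+ cells without glucose stand above all others for ALD3, ALD4, ALD6, ACS1, CAT2, YAT2 and the shared ALD2/ALD3 set, and those of ρ0 cells without glucose stand above all others for ALD5. For ACS1 the margin is narrow, at 106.2 for ρ+ no glucose replicate 2 against 105.6 for ρ0 glucose replicate 1.

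ALD5 encodes the other mitochondrial aldehyde dehydrogenase, and its highest group was ρ0 without glucose. There its signals were 214, 138 and 154, against 94.7, 97.2 and 103 in ρ0 cells in glucose. In ρ+ cells they were 119.9, 100.3 and 114 without glucose, against 135, 119 and 109.8 in glucose. The ρ0 groups were apart and the ρ+ groups overlapped. ALD5 rose 1.67-fold in ρ0 (log2 0.74 ± 0.18 SE, adjusted p = 0.0114), while its log2 change in ρ+ was −0.12 (adjusted p = 0.637, 95% interval −0.50 to 0.26). The difference of the responses, 0.86 ± 0.25 (SE), had an adjusted p of 0.0524. Without glucose it was 1.48-fold higher in ρ0 than in ρ+ (log2 0.57 ± 0.18 SE, adjusted p = 0.0274). Much of this rested on the array of ρ0 no glucose replicate 1, without which the rise in ρ0 was 0.56 (adjusted p = 0.0598) and the strain difference 0.39 (adjusted p = 0.129). Without ρ+ no glucose replicate 2 or 3 the strain difference did not pass either (log2 0.50 and 0.59, adjusted p = 0.0881 and 0.0571), nor after median centring (log2 0.37, adjusted p = 0.159). Without ρ0 no glucose replicate 2 the difference of the responses passed (log2 0.99, adjusted p = 0.0354).

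ALD6, for the cytosolic enzyme that is a main source of acetate during growth on glucose, rose in ρ+. Its signals were 461, 457 and 365 in ρ0 cells without glucose, 366, 405 and 253 in ρ0 cells in glucose, 498, 547 and 472 in ρ+ cells without glucose, and 362, 282 and 192 in ρ+ cells in glucose. The ρ+ groups did not overlap, and the ρ0 groups did, from 365 on the lowest array without glucose to 405 on the highest in glucose. The rise in ρ+ was 1.86-fold (log2 0.90 ± 0.22 SE, adjusted p = 0.00696), and the log2 change in ρ0 was 0.34 (adjusted p = 0.310, 95% interval −0.13 to 0.82). The difference between the 2 responses did not pass (log2 −0.55 ± 0.32 SE, adjusted p = 0.318).

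The shared ALD2/ALD3 set rose in both strains. It read 109, 120.2 and 132 in ρ0 cells without glucose, 78.8, 85.9 and 90.1 in ρ0 cells in glucose, 212, 241 and 191 in ρ+ cells without glucose, and 118, 95.8 and 96.6 in ρ+ cells in glucose. In both strains the groups without glucose lay above those in glucose. The rise was 1.41-fold in ρ0 (log2 0.50 ± 0.16 SE, adjusted p = 0.0489) and 2.06-fold in ρ+ (log2 1.04 ± 0.16 SE, adjusted p = 0.000287). In ρ0 the call was lost without any 1 of the 12 arrays, ρ+ arrays included (adjusted p = 0.0512 to 0.124). Without glucose the set was 1.77-fold lower in ρ0 than in ρ+ (log2 −0.82, adjusted p = 0.00198), and the difference of the responses was −0.55 (adjusted p = 0.174).

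The genes' own sets were dimmer. ALD3 read 35.2, 24.0 and 21.4 in ρ0 cells without glucose, 13.7, 25.2 and 18.8 in ρ0 cells in glucose, 36.8, 37.9 and 37.3 in ρ+ cells without glucose, and 26.1, 21.1 and 24.0 in ρ+ cells in glucose. The ρ+ groups were apart and the ρ0 groups overlapped. Its rise of 1.54-fold in ρ+ (log2 0.63 ± 0.22 SE, adjusted p = 0.0402) was lost without any 1 of the 6 ρ+ arrays (adjusted p = 0.0562 to 0.135). Without glucose its log2 difference between ρ0 and ρ+ was −0.48 (adjusted p = 0.105), which passed without ρ0 no glucose replicate 1 (log2 −0.69, adjusted p = 0.0432) and after median centring (log2 −0.68, adjusted p = 0.0458). In ρ0 the log2 change was 0.46 (adjusted p = 0.163), and without ρ0 glucose replicate 2 it was 0.66 and passed (adjusted p = 0.0432). ALD2 averaged 10.97 ± 2.00 in ρ0 cells without glucose, 10.5 ± 5.19 in ρ0 cells in glucose, 15.0 ± 2.75 in ρ+ cells without glucose and 11.2 ± 4.05 in ρ+ cells in glucose (SD, n = 3 each). Each of its groups overlapped the next, and no comparison of ALD2 passed (lowest adjusted p = 0.299).

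ACS1 encodes the acetyl-CoA synthetase known to be repressed by glucose. Its signals were 81.6, 87.3 and 99.0 in ρ0 cells without glucose, 106, 21.7 and 80.8 in ρ0 cells in glucose, 173, 106 and 163 in ρ+ cells without glucose, and 75.0, 54.9 and 71.9 in ρ+ cells in glucose. All ρ+ arrays without glucose exceeded all ρ+ arrays in glucose, and the ρ0 groups overlapped. The rise in ρ+ was 2.14-fold (log2 1.09 ± 0.40 SE, adjusted p = 0.0461) and the log2 change in ρ0 was 0.62 ± 0.40 (SE; adjusted p = 0.302). The rise in ρ+ was lost when any of 8 arrays was left out (adjusted p = 0.0512 to 0.146). These were all ρ+ arrays but ρ+ no glucose replicate 2, and the 3 arrays of ρ0 without glucose. Over all arrays left out singly, the adjusted p of this rise ranged from 0.000812 to 0.146. The widest spread was in ρ0 cells in glucose, where replicate 2 read 21.7 beside 106 and 80.8. Without this array the difference of the responses was −1.15 (adjusted p = 0.0304), against −0.47 ± 0.56 (SE; adjusted p = 0.649) with it, and the log2 difference between ρ0 and ρ+ without glucose was −0.69 either way (adjusted p = 0.0178 without it and 0.200 with it).

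The low value of ACS1 on that array was shared with probe sets of nearby number. On the array of ρ0 glucose replicate 2, the 100 features nearest to ACS1 in probe set number had a median log2 deviation of −0.91 from the other arrays of the group, and ACS1 had −2.02. On ρ+ no glucose replicate 2 these medians were −0.34 for the neighbours and −0.65 for ACS1. The neighbours of ACS2 deviated by −0.21 on ρ0 glucose replicate 2, and ACS2 by −0.35. YAT1, whose number is close to that of ACS1, did not follow its neighbours, at 0.75 against a median of −0.90. Of 5655 pairs of gene sets with successive numbers, 97.9% lay on the same chromosome in RefSeq R64, so that number and position on a chromosome cannot be told apart, and the cause of the trend was not tested. With each signal centred on the median of itself and its 100 nearest features by number, an alternative chosen after the data were seen, the rise of ACS1 in ρ+ was 2.47-fold (log2 1.30 ± 0.27 SE, adjusted p = 0.00215). So centred, the difference of its responses was −0.66 (adjusted p = 0.320).

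**Figure D3:**
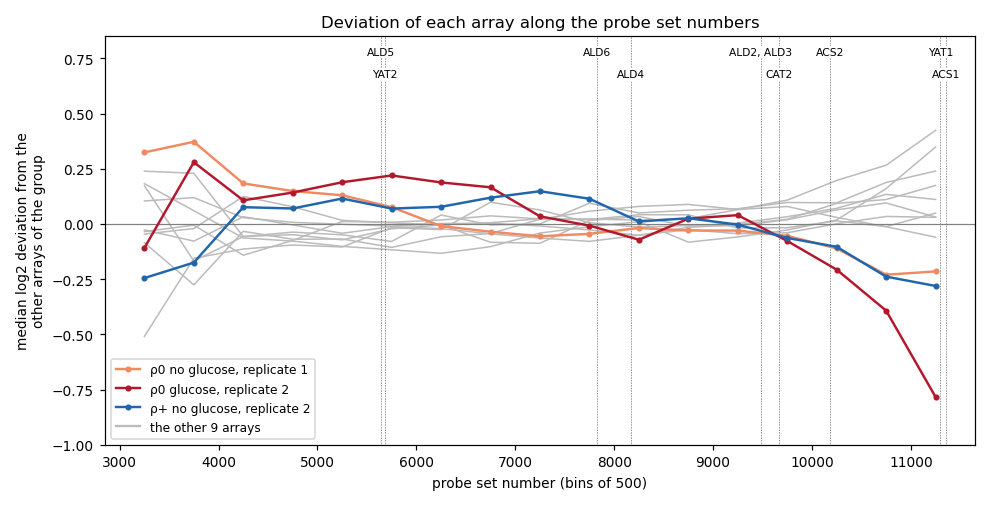
Median log2 deviation of the features of each array from the other arrays of its group, in bins of 500 probe set numbers (bins of at least 20 features); vertical dotted lines mark the numbers of the 10 genes' sets. The array of ρ0 glucose replicate 2 falls furthest at the high numbers, where ACS1 and YAT1 lie, and 2 further arrays fall less.

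ACS2, for the synthetase needed for growth on glucose and known as a source of acetyl-CoA for histone acetylation, passed in no comparison. Its signals were 516, 547 and 564 in ρ0 cells without glucose, 507, 379.9 and 460.3 in ρ0 cells in glucose, 656, 553 and 605 in ρ+ cells without glucose, and 594, 572 and 558 in ρ+ cells in glucose. The ρ+ groups overlapped, and the ρ0 groups were apart. The log2 change was 0.28 in ρ0 (adjusted p = 0.202, 95% interval −0.03 to 0.59) and 0.07 in ρ+ (adjusted p = 0.746, 95% interval −0.24 to 0.38). With centring by probe set number the change in ρ0 was 0.41 and passed (adjusted p = 0.0471).

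CAT2, for the carnitine acetyltransferase of mitochondria and peroxisomes, rose in ρ+. It read 18.8, 21.5 and 13.7 in ρ0 cells without glucose, 14.3, 22.6 and 13.5 in ρ0 cells in glucose, 28.5, 37.4 and 33.8 in ρ+ cells without glucose, and 17.8, 14.6 and 16.0 in ρ+ cells in glucose. The ρ+ group without glucose lay above all other groups, which overlapped each other. The rise in ρ+ was 1.96-fold (log2 0.97 ± 0.22 SE, adjusted p = 0.00375), and in ρ0 the log2 change was 0.10 (adjusted p = 0.780, 95% interval −0.36 to 0.57). Without glucose CAT2 was 1.80-fold lower in ρ0 than in ρ+ (log2 −0.85 ± 0.22 SE, adjusted p = 0.00978). The difference of the responses did not pass (log2 −0.87 ± 0.31 SE, adjusted p = 0.101).

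YAT2, for the cytosolic carnitine acetyltransferase, was the member whose 4 groups were apart in another order than those of ALD4: ρ+ without glucose, ρ0 in glucose, ρ0 without glucose, ρ+ in glucose. It read 17.0, 19.7 and 19.7 in ρ0 cells without glucose, 20.3, 25.1 and 23.7 in ρ0 cells in glucose, 26.8, 33.2 and 27.1 in ρ+ cells without glucose, and 12.1, 11.3 and 13.9 in ρ+ cells in glucose. It rose 2.19-fold in ρ+ (log2 1.13 ± 0.17 SE, adjusted p = 0.000218), and its log2 change in ρ0 was −0.27 (adjusted p = 0.298, 95% interval −0.64 to 0.10). The difference of the responses was −1.40 ± 0.24 (SE; adjusted p = 0.00209). YAT2 was higher in ρ0 than in ρ+ in glucose, by 1.75-fold (log2 0.81 ± 0.17 SE, adjusted p = 0.0115), and lower without glucose, by 1.503-fold (log2 −0.59 ± 0.17 SE, adjusted p = 0.0191). The higher signal in glucose did not pass without ρ+ glucose replicate 2 (log2 0.75, adjusted p = 0.0596), after quantile normalization (log2 0.58, adjusted p = 0.0725) or with scaling to poly-A controls (log2 0.95, adjusted p = 0.0535). The lower signal without glucose did not pass without ρ+ no glucose replicate 2 (log2 −0.49, adjusted p = 0.0703) or ρ0 no glucose replicate 1 (log2 −0.52, adjusted p = 0.0683). It was also lost with scaling to poly-A controls (log2 −0.53, adjusted p = 0.178) and without the 2 arrays of lowest CreX signal (log2 −0.52, adjusted p = 0.0592).

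YAT1, for the carnitine acetyltransferase of the outer mitochondrial surface, passed in no comparison. It averaged 15.1 ± 6.55 in ρ0 cells without glucose, 10.6 ± 3.90 in ρ0 cells in glucose, 14.0 ± 3.34 in ρ+ cells without glucose and 9.97 ± 0.675 in ρ+ cells in glucose (SD, n = 3 each). Each group overlapped the next in order of the means, while the ρ+ groups did not overlap each other. The log2 change was 0.41 in ρ0 (adjusted p = 0.377, 95% interval −0.23 to 1.04) and 0.42 in ρ+ (adjusted p = 0.305, 95% interval −0.22 to 1.05), so that a change of the size seen for CAT2 in ρ+ was within the interval.

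In each of the 5 comparisons, 4 pairs of genes for the same step were compared within arrays, where the scaling of an array cancels. For withdrawal in ρ+, the log2 change of ALD4 exceeded that of ALD6 by 1.62 ± 0.21 (SE), that of ACS1 exceeded that of ACS2 by 1.02 ± 0.20, and that of CAT2 exceeded that of YAT1 by 0.56 ± 0.14. Each had an exact permutation p of 0.1 (two-sided, 20 assignments), which is the smallest that 3 arrays against 3 allow, and 0.133 after adjustment over the 4 pairs. ALD2 and ALD3 differed by −0.22 in their change (exact permutation p = 0.5). For the difference of the responses, with 400 assignments and a smallest possible p of 0.005, the pair of CAT2 and YAT1 gave −0.86 ± 0.25 (exact permutation p = 0.02, adjusted 0.08) and that of ALD4 and ALD6 gave −1.35 ± 0.29 (exact permutation p = 0.09, adjusted 0.18). In the comparisons of 2 groups no pair could pass, given the smallest p of 0.1. For the difference of the responses no pair passed after adjustment with all arrays in. Its assignments shuffled the glucose labels within each strain, so that a change common to both strains also widens the permuted spread.

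Other genes of acetyl unit transport and use, 12 in a list, were examined beside these. The lists, like the 10 genes, were chosen with earlier results of these data known. For this and the further lists, the shares over all features are those given above. After withdrawal 4.61% were higher and 12.4% lower in ρ0, and 10.5% higher and 22.2% lower in ρ+. Without glucose 20.6% were higher and 9.42% lower in ρ0 than in ρ+, and 5.35% had a lower and 1.57% a higher response in ρ0. In ρ0, 2 of the 12 rose (CRC1 and CIT3) and 1 fell (ICL1) after withdrawal, with a median log2 change of 0.11. The log2 rise of CIT3, a citrate synthase gene, in ρ0 was 1.16 (adjusted p = 0.0255). The call was lost with ρ0 glucose replicate 2 left out (log2 0.67, adjusted p = 0.0608), where CIT3 was below the detection level, without ρ0 no glucose replicate 1 or 2 (adjusted p = 0.0577 and 0.0859), with poly-A scaling, or in a fit to the compared groups alone. The log2 change of ICL1, for isocitrate lyase, in ρ0 was −0.56 (adjusted p = 0.0445). That call was lost when any 1 of 10 arrays was left out (adjusted p = 0.0522 to 0.118), and held without ρ+ glucose replicate 3 or ρ0 no glucose replicate 1. It was also lost after quantile normalization (log2 −0.37, adjusted p = 0.196), median centring, poly-A scaling or local centring, with a larger pseudocount, and in a fit to the compared groups alone. In ρ+, 6 rose and 1 fell, with a median of 0.70. For 5 of the 12 (CRC1, AGP2, ACH1, MLS1 and ICL1) both the response and the signal without glucose were lower in ρ0 than in ρ+, and in glucose 0 of the 12 passed between the strains in the limma fit (CRC1 and AGP2 had an unadjusted p below 0.05). Of the 12, CRC1, for the carnitine carrier of the inner mitochondrial membrane, had the largest change. It read 22.6, 22.7 and 20.2 in ρ0 cells without glucose, 11.98, 10.1 and 16.4 in ρ0 cells in glucose, 87.0, 92.8 and 123 in ρ+ cells without glucose, and 8.68, 5.50 and 9.08 in ρ+ cells in glucose, where 2 of 3 arrays exceeded the detection level. It rose 1.66-fold in ρ0 (log2 0.73, adjusted p = 0.0302) and 11.1-fold in ρ+ (log2 3.48, adjusted p = 1.8e-08), with a difference of −2.75 ± 0.30 (SE; adjusted p = 5.5e-05). The rise in ρ0 did not pass when replicate 1 or 2 of either ρ0 group was left out (adjusted p = 0.0738 to 0.0858).

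AGP2, for a plasma membrane protein needed for carnitine uptake, averaged 10.3 ± 1.26 in ρ0 cells without glucose, 10.02 ± 1.45 in ρ0 cells in glucose, 32.6 ± 3.93 in ρ+ cells without glucose and 6.63 ± 2.20 in ρ+ cells in glucose, where 2 of 3 arrays exceeded the detection level. It rose 4.29-fold in ρ+ (log2 2.10, adjusted p = 8.5e-06), and the difference of the responses was −2.06 ± 0.32 (SE; adjusted p = 0.000832). ACH1, for a mitochondrial enzyme that moves coenzyme A to acetate, rose 2.93-fold in ρ+ (log2 1.55, adjusted p = 0.000138), to 80.4 ± 6.29 against 27.2 ± 8.70 in glucose. In ρ0 it averaged 32.0 ± 3.15 without glucose and 25.03 ± 6.89 in glucose. The difference of its responses, −1.19 ± 0.32 (SE; adjusted p = 0.0338), did not pass without any 1 of 10 arrays, the exceptions being ρ+ glucose replicate 1 and ρ0 glucose replicate 3 (adjusted p = 0.0546 to 0.101). MLS1, for malate synthase, averaged 6.80 ± 1.74 in ρ0 cells without glucose, 10.3 ± 4.89 in ρ0 cells in glucose, 20.9 ± 1.77 in ρ+ cells without glucose and 6.38 ± 0.450 in ρ+ cells in glucose (above the detection level on 2 of 3 arrays of ρ0 without glucose), with a difference of responses of −1.96 ± 0.37 (SE; adjusted p = 0.00404). The gene of the 12 that fell in ρ+ was ERG10, for the acetoacetyl-CoA thiolase of sterol synthesis, at 1.69-fold (log2 −0.76, adjusted p = 0.0158), which did not pass without ρ+ glucose replicate 1 (log2 −0.68, adjusted p = 0.0596) or after median centring (log2 −0.56, adjusted p = 0.103).

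**Figure D4:**
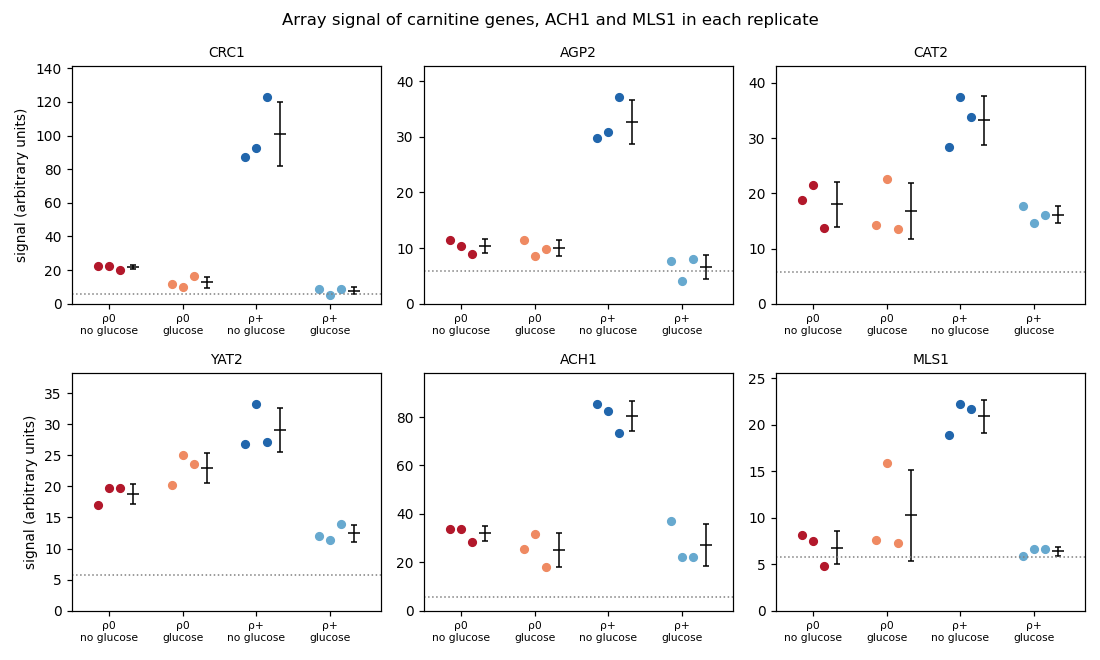
Signal (linear, arbitrary units, axes from 0) on each array for the carnitine carrier gene CRC1, AGP2, CAT2, YAT2, ACH1 and MLS1, with points for replicates 1 to 3, bars for the mean and SD of 3 arrays and a dotted line at the detection level of 5.82. In each panel the ρ+ arrays without glucose are the highest, and for CRC1 they lie between 87.0 and 123.

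Among 7 tested genes, of 8 listed, for the ethanol and acetaldehyde steps, 1 rose and 0 fell in ρ0 after withdrawal, and 1 rose and 1 fell in ρ+. The gene that rose in both was ADH2, at 1.56-fold in ρ0 (log2 0.64, adjusted p = 0.0120) and 5.04-fold in ρ+ (log2 2.33, adjusted p = 3.7e-08). Its rise in ρ0 did not pass with scaling to poly-A controls (log2 0.59, adjusted p = 0.172) or in a fit to the compared groups alone (adjusted p = 0.0577). PDC5, a pyruvate decarboxylase gene, was the one that fell in ρ+ (1.45-fold, log2 −0.54, adjusted p = 0.0404), a call lost without any 1 of the 6 ρ+ arrays (adjusted p = 0.0587 to 0.133). ADH5 was higher in ρ0 than in ρ+ in glucose, by 1.69-fold (log2 0.76, adjusted p = 0.0225), which did not pass without ρ+ glucose replicate 1 or 2 or ρ0 glucose replicate 1 (adjusted p = 0.0723 to 0.0929). Without glucose, PDC5 and ADH5, 2 of the 7, were higher in ρ0 than in ρ+, and 1, ADH2, was lower. Of 7 tested genes of acetate uptake and efflux, 3 rose and 1 fell in ρ0, and 4 rose and 2 fell in ρ+. For 3 of them, the acetate permease gene ADY2, the lactate permease gene JEN1 and ATO2, both the response and the signal without glucose were lower in ρ0 than in ρ+. ADY2 averaged 13.9 ± 5.86 in ρ0 cells without glucose, 7.52 ± 2.62 in ρ0 cells in glucose, 325 ± 57.2 in ρ+ cells without glucose and 7.24 ± 1.47 in ρ+ cells in glucose, where 2 of 3 arrays of each strain in glucose exceeded the detection level. Its difference of responses was −4.48 ± 0.37 (SE; adjusted p = 2.7e-06), against −3.17 ± 0.27 for JEN1 (adjusted p = 3.4e-06) and −2.65 ± 0.24 for ATO2 (adjusted p = 5.0e-06). After withdrawal JEN1 rose 2.17-fold in ρ0 and 19.5-fold in ρ+, and ATO2 rose 3.06-fold in ρ0 and 19.2-fold in ρ+. The fallen gene in both strains was AQR1, for a plasma membrane exporter linked to short-chain acids, at 2.07-fold in ρ0 (log2 −1.05, adjusted p = 0.00498) and 2.79-fold in ρ+ (log2 −1.48, adjusted p = 0.000164).

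Of 5 genes of beta-alanine and pantothenate synthesis and use, around the product of Ald2 and Ald3, 0 rose and 0 fell in ρ0 (CAB1 was lower at an unadjusted p below 0.05), and 0 rose and 3 fell in ρ+, with medians of 0.02 and −0.59. ECM31 and PAN5, for early steps of pantothenate synthesis, fell 2.15-fold (log2 −1.11, adjusted p = 0.00490) and 1.51-fold (log2 −0.59, adjusted p = 0.00771) in ρ+, and CAB1, for pantothenate kinase, fell 1.86-fold (log2 −0.90, adjusted p = 0.0334). With centring by probe set number the falls of PAN5 (log2 −0.27, adjusted p = 0.203) and CAB1 (log2 −0.71, adjusted p = 0.0894) did not pass, nor with median centring (adjusted p = 0.0853 and 0.0943). The fall of CAB1 did not pass without any single ρ+ glucose array or ρ+ no glucose replicate 3 (adjusted p = 0.0636 to 0.171). Without glucose, ECM31 and PAN5, 2 of the 5, were higher in ρ0 than in ρ+, and 0 were lower. With centring by probe set number neither passed (log2 0.57 and 0.29, adjusted p = 0.115 and 0.178). Of 4 other aldehyde and semialdehyde dehydrogenase genes, 0 passed after withdrawal in either strain in the limma fit, and 0 had an unadjusted p below 0.05. Without glucose 1 of the 4, PUT2, was higher in ρ0 than in ρ+, and 0 were lower. The PUT2 call was lost with centring by probe set number (log2 0.42, adjusted p = 0.143).

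Of 11 tested genes for regulators of these pathways, of 12 listed, 0 rose and 2 fell in ρ0 (MSN2 and MSN4). In ρ+ 1 rose (MIG1) and 0 fell. Over all features 4.61% rose and 12.4% fell in ρ0, and 10.5% rose and 22.2% fell in ρ+. CAT8, the other listed gene, did not pass the filter on dim signals and was not tested. MSN2 and MSN4 encode stress-response activators, and fell 1.91-fold (log2 −0.93, adjusted p = 0.00835) and 2.03-fold (log2 −1.02, adjusted p = 0.00818) in ρ0. The fall of MSN2 did not pass with scaling to poly-A controls (log2 −0.98, adjusted p = 0.0609). MIG1, for a repressor of glucose-repressed genes, read 5.71, 5.42 and 5.14 in ρ0 cells without glucose, all below the detection level, and 20.7, 18.3 and 27.0 in ρ+ cells without glucose. Its signal without glucose was thus at least 3.73-fold lower in ρ0 than in ρ+, with the detection level in place of the ρ0 signals. The limma fit, made on the ρ0 signals as read, gave an adjusted p of 0.000616 for this comparison. In glucose it averaged 7.997 ± 4.75 in ρ0, with 1 of 3 arrays above the detection level, and 7.91 ± 2.31 in ρ+, with 3 of 3 above. The genes for Snf1 kinase and for the activator Adr1 passed in neither strain, with log2 changes in ρ+ of −0.08 for SNF1 (adjusted p = 0.785) and 0.48 for ADR1 (adjusted p = 0.166). Without glucose, 1 of the 11, OAF1, was higher in ρ0 than in ρ+, and 3 were lower (SIP4, MIG1 and MSN4). With scaling to poly-A controls OAF1, SIP4 and MSN4 did not pass (adjusted p = 0.0570, 0.0862 and 0.0526).

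Across the 12 arrays, which share 4 group means, the log2 signals of the 10 genes were related to each other to different degrees. As a description, Pearson's r of ALD4 was 0.91 with the shared ALD2/ALD3 set, 0.86 with CAT2, 0.80 with ALD6, 0.79 with YAT2 and 0.02 with ALD5. The r of ALD5 with the other sets lay between −0.36 and 0.31. ACS1 and ACS2 had an r of 0.78. Both deviated in the direction of their neighbours by probe set number on ρ0 glucose replicate 2 and ρ+ no glucose replicate 2. On some other arrays ACS1 did not, as on ρ+ glucose replicate 2 (−0.41 against a median of 0.08). The part of the trend in this r was not tested. Among all other genes tested, those most like ALD4 were ATO2 (r = 0.989), HXK1 (r = 0.983) and MMO1 (r = 0.979). CAT2 was most like MGR1 (r = 0.963), YAT2 most like RTC2 (r = 0.945), ALD6 most like PRB1 (r = 0.953) and the shared ALD2/ALD3 set most like ISF1 (r = 0.964). For ACS1 the most alike were UBX6 (r = 0.966), TDH1 (r = 0.961) and YJL213W (r = 0.957), and the sets of these 3 lie among the high probe set numbers where the trend was seen.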

How the data were processed

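RNA of 12 samples, from cultures split between the media, was selected for poly(A), labelled and hybridised to 1-colour Affymetrix yeast arrays, per the labels' protocols. The deposited values are linear signal intensities from MAS5, as the submitters' processing notes name it, and the trimmed mean was 99.94 on each array. Of 9335 probe sets, 6504 were annotated to 1 gene. The brightest set by mean signal stood for a gene. Signals were analysed as log2(signal + 1.498), the 10th percentile of all signals, and a feature was tested where a group mean exceeded 5.82, the 25th percentile. This left 5361 genes and the shared ALD2/ALD3 set. A model of 4 group means was fitted with limma 3.58.1 in R 4.3.3 (lmFit, contrasts.fit, eBayes with an intensity trend), with two-sided p-values adjusted by Benjamini-Hochberg over all 5362 features, threshold 0.05. Pairs of genes were compared by exact permutation over arrays. The named genes are the 10 genes, up to 3 called genes of each list with the largest change, and the most alike genes by Pearson's r over 12 arrays. Genes named beyond these were chosen after their values were seen. The 10 genes and the lists were chosen with earlier results of these data known. Quantile normalization, median centring, poly-A scaling, other settings and leaving out arrays were alternatives. Per the labels, replicate numbers are not stated to mark a culture. Correlations of deviations between same-numbered arrays lay between −0.03 and 0.52 within a strain, and between −0.11 and 0.34 within a medium. The main fit used no block, so that any sharing of cultures between arrays is not taken into account there. A planned promoter motif search is not reported here. No detection calls were used, and the number of arrays limits the precision.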

Additional observations from a re-analysis of the deposited data

Results flagged for a closer look

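The glucose responses of 2 of the 10 genes differed between the strains by the limma test of the difference itself. For ALD4 the response in ρ0 was lower than that in ρ+ by a log2 difference of −1.90 ± 0.23 (SE, adjusted p = 0.000119), with log2 changes of 0.62 in ρ0 and 2.52 in ρ+. The YAT2 difference was −1.40 ± 0.24 (SE, adjusted p = 0.00209), with log2 changes of −0.27 in ρ0 and 1.13 in ρ+. Both passed in every alternative run, and all 3 ρ+ arrays without glucose exceeded all other arrays for both genes.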

How the results depend on the processing

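Over 11 sets and 5 comparisons, 18 changes passed and 9 of these passed in every alternative run for them (24, or 23 for the difference of the responses), while 31 of the 37 others passed in none. No direction was turned among these 18. For withdrawal in ρ0 the count of genes that passed was 2. It was 0 with poly-A control scaling, 0 in a fit to the compared groups alone and 1 (ALD4) without the 2 arrays of lowest CreX signal. Over the arrays left out singly it was 0 to 3 (0 without ρ0 no glucose replicate 1, 1 without ρ0 glucose replicate 3). For ρ0 against ρ+ in glucose it was 1, and 0 after quantile normalization, 0 with poly-A control scaling, and 0 to 1 with single arrays left out. For ρ0 against ρ+ without glucose it was 4, with 2 (ALD4 and CAT2) under poly-A control scaling and 2 to 5 with single arrays left out (2 without ρ+ no glucose replicate 2). The pair of ACS1 and ACS2 gave a difference of responses between −1.24 (without ρ0 glucose replicate 2, exact permutation adjusted p = 0.04) and −0.35, and CAT2 and YAT1 one between −1.06 (without ρ0 no glucose replicate 3, exact permutation adjusted p = 0.02) and −0.74. With the replicate block, ALD5 passed for the difference of the responses (log2 0.86, adjusted p = 0.0456 against 0.0524), and ALD3 did not pass for withdrawal in ρ+ (log2 0.63, adjusted p = 0.0546 against 0.0402). Among the other listed genes carried through the alternatives, the block let ADY2 and TPO2 pass in ρ0 (adjusted p = 0.0106 and 0.00762). It also let CAB1 pass in ρ0, MSN2 in ρ+, ERG10 between the strains without glucose, and ERG10, PDC5 and MSN4 for the difference (adjusted p = 0.00498 to 0.0382). The numbers are not shown to pair the samples. As a mean over both of its sets ALD6 had 0.41 in ρ+ (adjusted p = 0.269), since 1 set lies below detection. ACS1 did not pass in ρ+ with poly-A scaling (adjusted p = 0.057) or with no intensity trend (0.056).
Counts over all features moved with the scaling. For withdrawal in ρ0, 247 features were higher and 666 lower, against 351 and 495 by quantile normalization, 445 and 383 by median centring and 72 and 278 by poly-A scaling. For withdrawal in ρ+ they were 562 and 1193, against 643 and 760, 808 and 548, and 365 and 426. For ρ0 against ρ+ in glucose they were 268 and 78, against 127 and 118, 118 and 157, and 175 and 17. Without glucose they were 1102 and 505, against 517 and 602, 443 and 741, and 620 and 279. For the difference they were 84 and 287, against 77 and 294, 63 and 315, and 8 and 156. The cause was not tested.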
